A study of Mus musculus with 24 samples.

Results

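Regulatory T cells (Treg) are CD4+ T cells that restrain other immune cells, and the transcription factor Foxp3 is their defining gene. The 10 genes of a Treg signature were followed here in the RNA of bone substitute constructs, namely Foxp3, Il2ra, Ctla4, Icos, Ikzf2, Tnfrsf18, Tnfrsf4, Il10, Ccr8 and Tigit. They were chosen by name, with earlier results of these data known, and are 10 of the 51138 genes counted. All 10 passed the filter of at least 10 counts over all samples that left 30564 genes for testing. The question was whether Treg added to a construct, or Treg removed from the host with diphtheria toxin, were visible in the RNA of the whole construct.

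The hosts were Foxp3-DTR/eGFP mice of both sexes, 8 to 9 weeks old, in which the Foxp3 gene drives a diphtheria toxin receptor and a green fluorescent protein. All groups received 40 mg of a granular ceramic bone substitute, biphasic calcium phosphate (BCP), under the skin, with 2 implants of the same kind per mouse. The BCP group had no cells, BCP+MSC had 800000 bone marrow mesenchymal stromal cells (MSC), and BCP+MSC+RvE1 had MSC primed for 36 h with 10 nM of resolvin E1, a lipid mediator that resolves inflammation. BCP+MSC+Treg had MSC cultured for 36 h at a ratio of 1 to 1 with Treg sorted from the spleens of Foxp3-DTR/eGFP mice and activated through CD3 and CD28. (dep)BCP+MSC constructs likewise held MSC, as did those of (dep)BCP+MSC+RvE1inj, and mice of both these groups were given 50 µg per kg of diphtheria toxin on 2 consecutive days after implantation and again on days 4, 6, 8 and 10. (dep)BCP+MSC+RvE1inj mice were also given daily local injections of 1 µM resolvin E1 in 50 µL. Constructs were taken at week 2, day 14, which was 4 days after the last toxin dose, and each of the 6 groups had 4 samples, 1 per mouse. The donor Treg came from the same strain and thus also carried the toxin receptor, but no group combined added Treg with toxin.

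Libraries held between 8482701 and 144417743 counts, so that 3 counts were worth 0.354 CPM (counts per 1000000 counts) in the shallowest and 0.0208 CPM in the deepest. Levels below are CPM after TMM normalization. The libraries of (dep)BCP+MSC differed among themselves. Summed over 14 T cell genes, replicates 1 and 2 had 45.2 and 64.9 CPM and the columns numbered 4 and 5 had 120.9 and 208 CPM. The 16 samples without toxin had 36.2 to 122.7 CPM, so that only the column numbered 5 lay above them. Replicate 1 was the shallowest library of all and had 344.2 CPM summed over 8 skin genes, against 1.45 to 91.1 CPM in all other samples. Results that rest on (dep)BCP+MSC are therefore also given without replicates 1 and 2 and without the columns numbered 4 and 5. This covers the 10 genes, the Foxp3 to CD3 ratio and the main gene lists. These pairs were chosen after the data were seen and differ in the T cell genes themselves. Without a pair, results in T cell genes and in the ratio are thus descriptions only. Counts of calls without a pair have no share over all genes beside them and are descriptions too.

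Foxp3 sits at the head of this signature and maintains Treg identity together with Ikzf2, which encodes the transcription factor Helios. Il2ra (CD25) captures the growth factor interleukin 2. Ctla4, Icos and Tigit are receptors of the CD28 and nectin-binding families, and Ctla4 and Tigit inhibit while Icos costimulates. Tnfrsf18 (GITR) and Tnfrsf4 (OX40) are costimulatory receptors of the tumor necrosis factor receptor family, Il10 is an anti-inflammatory cytokine and Ccr8 is a chemokine receptor of tissue Treg. Apart from Foxp3, all of these genes are also expressed by other cells, including activated conventional T cells, and Il10 also by macrophages.

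Of the 10 genes, 7 had an entry in the RefSeq promoter table of GRCm38.p6. The 150 bases upstream of the start are shown for Ctla4, Tigit and Ccr8, which were higher in toxin-treated mice, and for Foxp3, which was not. Capitals mark GGAAA on either strand, the core bound by NFAT, a factor activated by T cell receptor signalling.
Ctla4, chr1:60908875-60909024, plus strand: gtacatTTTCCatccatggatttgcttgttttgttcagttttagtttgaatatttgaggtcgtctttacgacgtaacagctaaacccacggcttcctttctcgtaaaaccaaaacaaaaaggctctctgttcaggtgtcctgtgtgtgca
Tigit, chr16:43664185-43664334, minus strand: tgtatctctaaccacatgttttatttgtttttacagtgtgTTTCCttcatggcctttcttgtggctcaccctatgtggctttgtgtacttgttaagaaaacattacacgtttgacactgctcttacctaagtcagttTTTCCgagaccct
Ccr8, chr9:120091983-120092132, plus strand: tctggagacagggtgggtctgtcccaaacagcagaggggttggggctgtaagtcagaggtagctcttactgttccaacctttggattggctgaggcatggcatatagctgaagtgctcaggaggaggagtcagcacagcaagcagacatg
Foxp3, chrX:7579526-7579675, plus strand: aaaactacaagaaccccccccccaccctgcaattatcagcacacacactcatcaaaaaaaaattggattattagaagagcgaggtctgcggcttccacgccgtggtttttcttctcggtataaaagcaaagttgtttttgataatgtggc
The window held 1 match in Ctla4, 2 in Tigit and 0 in Ccr8 and Foxp3. Among the entries not shown, it held 1 in Tnfrsf18, which was not called in toxin-treated samples, and 0 in Il2ra and Tnfrsf4. Of all 32851 promoters in the table, 37.6% held at least 1 match in the same window, so these matches are descriptions only.

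Foxp3 (ENSMUSG00000039521.12, GRCm38 chromosome X from 7579676 to 7595243, plus strand) was detected in every library, with 4 to 158 counts. It had the lowest level per length of the 10 genes, at 0.23 ± 0.111 CPM per kb of exons (SD, n = 24). Tnfrsf4 had the highest, at 5.44 ± 2.86 CPM per kb, followed by Tnfrsf18 (3.95 ± 2), Tigit (3.18 ± 2.55), Ctla4 (2.85 ± 2.21) and Il10 (2.61 ± 1.82). Il2ra (1.25 ± 0.467), Icos (1.12 ± 0.746), Ccr8 (0.695 ± 0.647) and Ikzf2 (0.423 ± 0.112) lay between these and Foxp3, all in CPM per kb. Neighbours in this order differed by less than the larger of their SDs, except for Ikzf2 and Foxp3. Foxp3 shares 14.8% of its exon bases with Ccdc22 and 9.35% with Gm36995 on the opposite strand, and 6.69% with Flicr on its own strand. Reads in shared bases were not counted for any of them.

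Foxp3 in the 4 BCP replicates was at 1.28, 0.914, 1.27 and 2.14 CPM. In BCP+MSC it was at 1.04, 1.19, 0.629 and 0.876 CPM. The values in BCP+MSC+RvE1 were 0.68, 0.421, 0.851 and 0.998 CPM. BCP+MSC+Treg, the group given Treg, did not stand out, with 0.42, 0.356, 0.729 and 1.48 CPM. Of the (dep)BCP+MSC samples, replicate 1 was at 1.69, replicate 2 at 0.891, the column numbered 4 at 0.976 and the column numbered 5 at 0.378 CPM. (dep)BCP+MSC+RvE1inj had 0.701, 0.754, 0.298 and 1.07 CPM. By group mean Foxp3 was highest in BCP (1.4 ± 0.521 CPM), then (dep)BCP+MSC (0.985 ± 0.542), BCP+MSC (0.933 ± 0.24), BCP+MSC+Treg (0.746 ± 0.515), BCP+MSC+RvE1 (0.738 ± 0.248) and (dep)BCP+MSC+RvE1inj (0.705 ± 0.315; SD, n = 4 each). Every neighbouring pair of groups in this order overlapped.

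**Figure D1:**
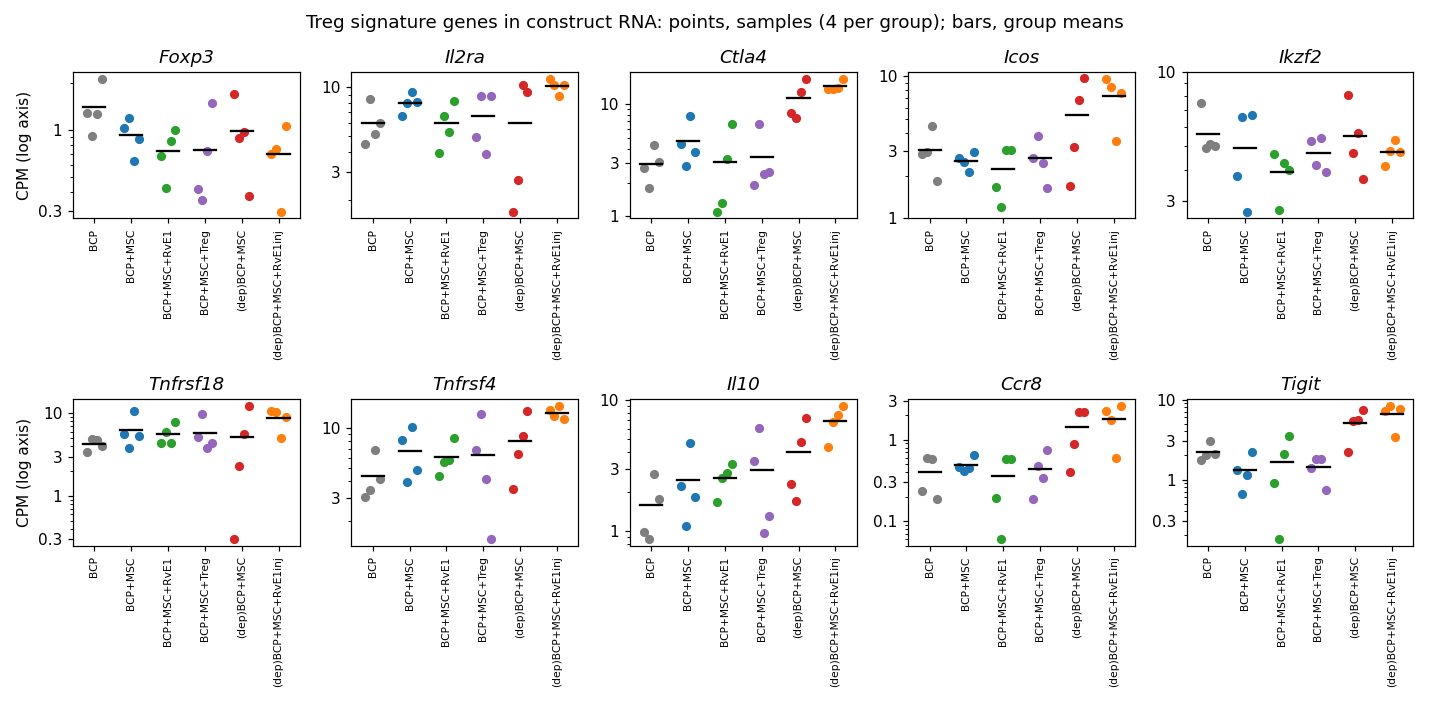
Level of each of the 10 genes in CPM (log axis) by group, with 1 point per sample (n = 4 per group) and a bar at the group mean. Ctla4, Tigit and Ccr8 lie higher in the 2 toxin groups on the right, with Ctla4 at 7.44 CPM or more there, while Foxp3 spans 0.298 to 1.69 CPM in the toxin groups and 0.356 to 2.14 CPM in the others.

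With Treg added (BCP+MSC+Treg against BCP+MSC), 0 of the 10 genes changed. Log2 fold changes ran from -0.49 for Ctla4 to 0.26 for Il10, with 3 of 10 above 0, and in edgeR's quasi-likelihood test 0 genes passed either an adjusted p-value under 0.05 or an unadjusted one with an absolute log2 fold change over 1. Over all genes tested, 0% passed the adjusted threshold and 2.56% the unadjusted one in either direction. DESeq2 likewise called 0 of the 10 at either threshold. For Foxp3 the log2 fold change was -0.39 (95% interval -1.38 to 0.61), so that a level above 1.52 times that of BCP+MSC lay outside the interval. Ikzf2 was the most narrowly measured, at -0.07 (-0.67 to 0.52), and Ccr8 the least, at -0.26 (-1.48 to 0.96). In bulk RNA, fewer cells of a type and less RNA per cell cannot be told apart.

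Costimulatory receptors varied more within the groups than between them. In BCP+MSC+Treg, Tnfrsf4 was at 6.88, 12.7, 4.18 and 1.48 CPM in replicates 1 to 4, and in BCP+MSC at 8.13, 3.97, 10.2 and 4.86 CPM. The group with added Treg thus held both the highest and the lowest value. Tnfrsf18 was at 5.18, 9.94, 3.83 and 4.44 CPM against 5.65, 3.85, 10.6 and 5.26 CPM, and the ranges overlapped. Icos, at 2.68, 3.8, 2.45 and 1.64 CPM with Treg and 2.65, 2.5, 2.12 and 2.96 CPM without, was the closest between the groups, with a log2 fold change of 0.06.

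The genes that bind or signal with the members, and other genes linked to Treg, showed no call either. Of 16 ligands, receptor chains and partners, 20 other Treg-associated genes, 14 T cell genes and 10 tested effector T cell genes, 0 passed either threshold with Treg added. DESeq2 called 0 at the adjusted threshold and 1, an effector gene, at the unadjusted one. Median log2 fold changes were -0.04, -0.09, 0.05 and 0.07, against -0.1 for the 10 members. The smallest p-values among the partners belonged to Cd28, the costimulatory receptor that shares ligands with Ctla4, with a log2 fold change of -0.36, and Ccl1, the ligand of Ccr8, with -0.74. Among the other Treg-associated genes they belonged to Lrrc32 (-0.45), which presents latent TGF-β on Treg, and Nrp1 (-0.31). Cd8b1 (0.91) and Cd8a (0.5), the chains of the CD8 coreceptor, led the T cell genes, and Ifng (1.88), encoding interferon-γ, had the smallest p-value of the effector genes. All 7 of these log2 fold changes had adjusted p = 1 in edgeR.

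In the other comparisons of constructs without toxin, 0 of 10 genes passed either threshold in edgeR, and DESeq2 called 0 at the adjusted one and 1, Foxp3 in BCP+MSC+Treg against BCP, at the unadjusted one. The unadjusted threshold was passed by 4.32% of all genes for BCP+MSC against BCP, 2.5% for BCP+MSC+RvE1 against BCP+MSC and 5.85% for BCP+MSC+Treg against BCP. Foxp3 was lower in BCP+MSC+Treg than in BCP by a log2 fold change of -0.96 (95% interval -1.97 to 0.04; edgeR, unadjusted p = 0.073, adjusted p = 0.614).

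After toxin alone, meaning toxin without RvE1 ((dep)BCP+MSC against BCP+MSC), Tigit rose and Foxp3 was near its level without toxin. The paper reports, by flow cytometry, fewer Treg in the lymph nodes and spleen of toxin-treated mice, and names no such measurement in the constructs. It describes Treg depletion as an experiment of its own and names no group there that was injected without toxin. In comparisons of toxin-treated with untreated groups, toxin thus cannot be told apart from the experiment or the injections. Tigit (chromosome 16 from 43648861 to 43664184, minus strand) stood at 2.19 and 5.44 CPM in the numbered replicates of (dep)BCP+MSC and at 5.6 and 7.33 CPM in the columns numbered 4 and 5. In BCP+MSC it was at 1.31, 0.656, 1.14 and 2.21 CPM, so that the ranges met at a single sample. The log2 fold change was 1.96 ± 0.55 (SE; edgeR, adjusted p = 0.0454). Tigit was 1 of 10 genes called higher, where 1.34% of all genes were called higher and 1.8% lower. Leaving out each animal in turn kept its log2 fold change between 1.73 and 2.32, but the call held in 1 of 8 such fits, with adjusted p from 0.0356 to 0.115. DESeq2 called 3 genes, Tigit, Ccr8 and Icos, and it also called more of all genes than edgeR in this comparison.

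Ctla4, Icos and Ccr8 passed the unadjusted threshold in that comparison, which 6.65% of all genes passed in the higher direction. The paper also reports Ctla4 and Icos as higher in (dep)BCP+MSC than in BCP+MSC. Ctla4 (chromosome 1 from 60887000 to 60915832, plus strand) was at 8.37, 7.44, 12.9 and 16.6 CPM after toxin and at 4.45, 2.79, 7.91 and 3.73 CPM without it. All 4 toxin samples were above the BCP+MSC median, and replicate 2 lay below the highest BCP+MSC sample. The log2 fold change was 1.27 ± 0.48 (SE; edgeR, adjusted p = 0.135). For Icos it was 1.08 ± 0.44 (adjusted p = 0.166) and for Ccr8 1.56 ± 0.61 (adjusted p = 0.151). Foxp3 differed by 0.04 on the log2 scale (95% interval -0.96 to 1.03), which spans 0.516 to 2.04 times the BCP+MSC level.

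The pairs of libraries in (dep)BCP+MSC gave different pictures for some receptors. Il2ra was at 1.69 and 2.65 CPM in replicates 1 and 2 but at 10.3 and 9.32 CPM in the columns numbered 4 and 5, against 6.68 to 9.32 CPM in BCP+MSC. Tnfrsf18 was at 0.299 and 2.29 CPM and at 5.56 and 12.4 CPM in the same order, and its value in replicate 1 rested on 3 counts. Without the columns numbered 4 and 5, Il2ra had a log2 fold change against BCP+MSC of -1.84 (edgeR, adjusted p = 0.00446) and Tnfrsf18 one of -2.18 (adjusted p = 0.0185). Without replicates 1 and 2 these were 0.31 and 0.52, and neither was called. Tigit kept its direction both ways, at 1.54 (adjusted p = 0.142) and 2.29 (adjusted p = 0.169). The skin genes, 344.2 CPM in replicate 1 and 27.5 to 87.3 CPM in the other 3 samples, moved with this split only in replicate 1, and their part in it was not tested.

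The other genes past the unadjusted threshold leaned on the columns numbered 4 and 5. Ctla4 had a log2 fold change of 0.77 without these columns and of 1.66 without replicates 1 and 2. For Ccr8 these were 0.46 and 2.16, and for Icos -0.03 and 1.71. Foxp3 was at 0.47 and -0.44. None of these 4 genes had an adjusted p under 0.05 in either fit.

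**Figure D2:**
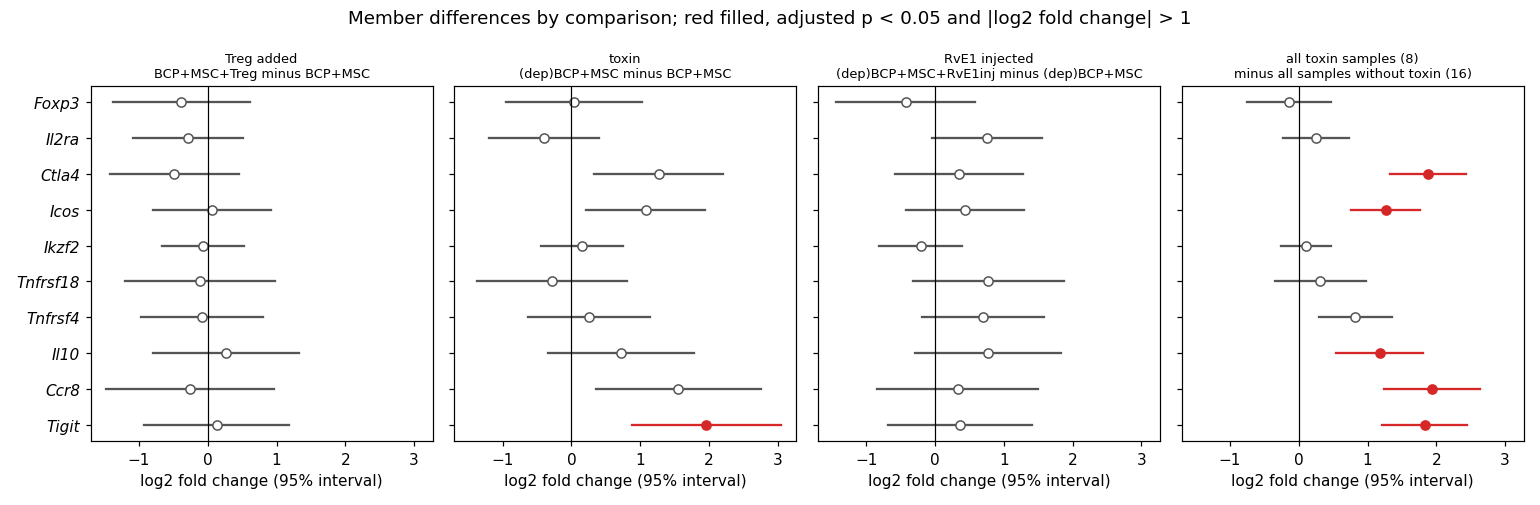
Log2 fold change with 95% interval (x axis) for each of the 10 genes in 4 comparisons, where filled red points passed an adjusted p of 0.05 with an absolute log2 fold change over 1. With Treg added 0 genes are red, after toxin alone 1 (Tigit), with RvE1 injected 0, and over all toxin-treated samples 5.

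Injected RvE1 in toxin-treated mice ((dep)BCP+MSC+RvE1inj against (dep)BCP+MSC) changed 0 of 10 genes at either threshold, where 0% of all genes passed the adjusted and 5.13% the unadjusted threshold in either direction. DESeq2 also called 0 of the 10 at either threshold. Log2 fold changes were above 0 for 8 of 10 genes and largest for Il10 (0.77), Tnfrsf18 (0.77) and Il2ra (0.75, 95% interval -0.05 to 1.56). Foxp3 was at -0.43 (-1.43 to 0.58) and Ikzf2 at -0.21 (-0.81 to 0.39). Without the columns numbered 4 and 5, Il2ra (2.23, adjusted p = 0.00748) and Tnfrsf18 (2.71, adjusted p = 0.0203) were called higher with RvE1, and without replicates 1 and 2 0 genes were. In Il2ra and Ctla4 the (dep)BCP+MSC+RvE1inj samples were closer to each other, with Il2ra at 11.3, 10.4, 8.81 and 10.3 CPM and Ctla4 at 13.5, 13.5, 14 and 16.9 CPM. In Tigit they were not, with an SD of 2.23 CPM against 2.14 CPM in (dep)BCP+MSC.

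Against BCP+MSC, (dep)BCP+MSC+RvE1inj had Tigit called higher, with a log2 fold change of 2.32 ± 0.56 (SE; edgeR, adjusted p = 0.04997, just inside the threshold). Of all genes, 0.242% were called higher. The call was lost with each of the 8 animals left out in turn. DESeq2 called 4 of the 10 genes, but its share over all genes is not given, as 0.242% is that of edgeR. The unadjusted threshold was passed by 5 of 10 genes, namely Tigit, Ctla4, Icos, Il10 and Ccr8, and by 5.07% of all genes in that direction. In Tigit, Ctla4, Icos and Tnfrsf4 the 4 samples were all above the 4 BCP+MSC samples. The share of all genes separated in this way was not determined, so this is a description only. Both this comparison and that of (dep)BCP+MSC use the same BCP+MSC samples.

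Over all 8 toxin-treated against all 16 untreated samples, 5 of 10 genes rose and 0 fell, where 5.59% of all genes were called higher and 3.39% lower. The median log2 fold change of the 10 genes was 1.0, against -0.01 over all genes tested. DESeq2 also called 5, but its share over all genes is not given. The untreated samples include the BCP group, which had no MSC, and (dep)BCP+MSC+RvE1inj received RvE1 as well, so that this comparison is not of toxin alone. It shares its samples with those above, and here too toxin cannot be told apart from the experiment or the injections.

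Ctla4 ranged from 7.44 to 16.9 CPM (median 13.5) in toxin-treated samples and from 1.1 to 7.91 CPM (median 2.91) in the others. This was a log2 fold change of 1.88 ± 0.28, or 3.68-fold (SE; edgeR, adjusted p = 5.76e-05), and 7 of 8 toxin-treated samples were above all 16 others. Tigit ranged from 2.19 to 8.36 CPM (median 6.35) against 0.181 to 3.46 CPM (median 1.77). Its log2 fold change was 1.83 ± 0.31 (edgeR, adjusted p = 0.000278), with 6 of 8 samples above all others. Both inhibitory receptors were thus above the median of untreated samples in 8 of 8 toxin-treated samples.

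Ccr8 (chromosome 9 from 120092114 to 120094906, plus strand) was a low gene, at 0.399 to 2.61 CPM (median 1.97) against 0.0602 to 0.74 CPM (median 0.455). The log2 fold change was 1.94 ± 0.36 (SE; edgeR, adjusted p = 0.000564), and the overlap came from replicate 1 of (dep)BCP+MSC and replicate 3 of (dep)BCP+MSC+RvE1inj, with 4 and 8 counts. Icos (chromosome 1 from 60977927 to 61000320, plus strand) ranged from 1.69 to 9.7 CPM (median 7.19) with and from 1.2 to 4.49 CPM (median 2.66) without toxin, giving a log2 fold change of 1.26 ± 0.26 (adjusted p = 0.00151 in edgeR). Il10 (chromosome 1 from 131019845 to 131024974, plus strand) was at 1.71 to 9 CPM (median 5.78) against 0.877 to 6.05 CPM (median 2.03). Its log2 fold change was 1.18 ± 0.32 (adjusted p = 0.0135 in edgeR), and it was the least separated of the 5, with 4 of 8 samples above all others.

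Tnfrsf4 (chromosome 4 from 156013843 to 156016612, plus strand) had an adjusted p of 0.0402 in edgeR but a log2 fold change of 0.82 ± 0.27 (SE), below the threshold of 1. The remaining 4 genes did not pass either condition. Their log2 fold changes were -0.15 (95% interval -0.76 to 0.47) for Foxp3, 0.25 (-0.23 to 0.74) for Il2ra, 0.1 (-0.27 to 0.46) for Ikzf2 and 0.31 (-0.35 to 0.98) for Tnfrsf18. For Foxp3 this spans 0.59 to 1.38 times the untreated level. Foxp3 ranged from 0.298 to 1.69 CPM (median 0.823) in toxin-treated samples and from 0.356 to 2.14 CPM (median 0.895) in the others, and 0 of 8 toxin-treated samples lay above all others.

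Without the columns numbered 4 and 5, 3 of the 5 calls remained, namely Ctla4, Ccr8 and Tigit, while Icos was at a log2 fold change of 0.72 (adjusted p = 0.0563) and Il10 at 0.68 (adjusted p = 0.202). Il10 was also not called without the column numbered 5 alone (0.94, adjusted p = 0.0559) or in libraries of at least 20000000 counts (1.03, adjusted p = 0.176). Without replicates 1 and 2, Tnfrsf4 passed the threshold as well, at 1.06 (adjusted p = 0.0252).

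Pairs of members lie side by side in the genome. Ctla4 and Icos are 62094 bases apart on chromosome 1, with the related receptor Cd28 113640 bases before Ctla4. Ctla4 and Icos were both called in toxin-treated samples, and Cd28 rose with adjusted p = 0.00961 in edgeR and a log2 fold change of 0.79, below the threshold of 1. Tnfrsf4 and Tnfrsf18 (chromosome 4 from 156026164 to 156028895, plus strand) are 9551 bases apart, and neither was called. Of the exon bases of Tnfrsf18, 27.2% are shared with Gm16008 on the opposite strand and gave it no counts.

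T cell genes moved with the members. Of 14 T cell genes, 9 rose and 0 fell in toxin-treated samples, with 14 of 14 log2 fold changes above 0 and a median of 1.18. Over all genes, 5.59% were called higher and 3.39% lower. Cd3g, a CD3 chain, averaged 15.9 ± 8.1 CPM in toxin-treated and 5.36 ± 2.55 CPM in untreated samples (SD, n = 8 and 16). Its log2 fold change was 1.52 (edgeR, adjusted p = 0.000933). Of the 14, 2 rose without the columns numbered 4 and 5 and 11 without replicates 1 and 2. As these pairs differ in the same genes, these 2 counts are a description only. The sum over the 14 genes was 188.6 to 227.8 CPM in (dep)BCP+MSC+RvE1inj, 45.2 to 208 CPM in (dep)BCP+MSC and 36.2 to 122.7 CPM in the other groups. The part of the T cell genes in the higher level of Ctla4, Tigit, Ccr8, Icos and Il10 was not tested.

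The level of Foxp3 relative to the CD3 genes was taken as its log2 CPM minus the mean log2 CPM of Cd3d, Cd3e and Cd3g. On this log2 scale BCP was at -0.95 ± 1.32, BCP+MSC at -2.09 ± 1.15, BCP+MSC+RvE1 at -2.52 ± 0.56 and BCP+MSC+Treg at -2.61 ± 1.72. Of the toxin-treated groups, (dep)BCP+MSC was at -2.92 ± 1.78 and (dep)BCP+MSC+RvE1inj at -4.32 ± 0.62 (SD, n = 4 each). The lowest sample, at -5.34, was the (dep)BCP+MSC column numbered 5. Toxin-treated samples were lower than untreated ones by 1.57 on the log2 scale, which is 2.97-fold (exact permutation test over 735471 arrangements, p = 0.014), and 6 of 8 were below the untreated median. After adjustment over the 5 comparisons of this ratio, p was 0.0701, and the difference did not pass.

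Against BCP+MSC, all 4 (dep)BCP+MSC+RvE1inj samples were below all 4 controls in this ratio, a difference of -2.22. The exact permutation test gave p = 0.0286, the smallest that 4 against 4 samples allow, and 0.0714 after adjustment. (dep)BCP+MSC differed from BCP+MSC by -0.82 (exact permutation test, p = 0.514). This difference was 0.45 without the columns numbered 4 and 5 and -2.09 without replicates 1 and 2 (exact permutation p = 0.667 and 0.2, where 2 against 4 samples cannot go below 0.0667). (dep)BCP+MSC+RvE1inj differed from (dep)BCP+MSC by -1.4 (exact permutation p = 0.2), which was -2.67 and -0.13 without these pairs. Over all toxin-treated samples the difference without them was -1.38 (exact permutation p = 0.0469) and -2.23 (p = 0.00103 in the same test), neither adjusted. The pairs differ in the CD3 genes themselves, so the values without a pair are descriptions only. With Treg added the ratio was lower by 0.52 (exact permutation test, p = 0.629), with 2 of 4 samples below the BCP+MSC median. Over all toxin-treated samples the log2 fold change was -0.15 for Foxp3 itself and 1.4, 1.21 and 1.52 for Cd3d, Cd3e and Cd3g.

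**Figure D3:**
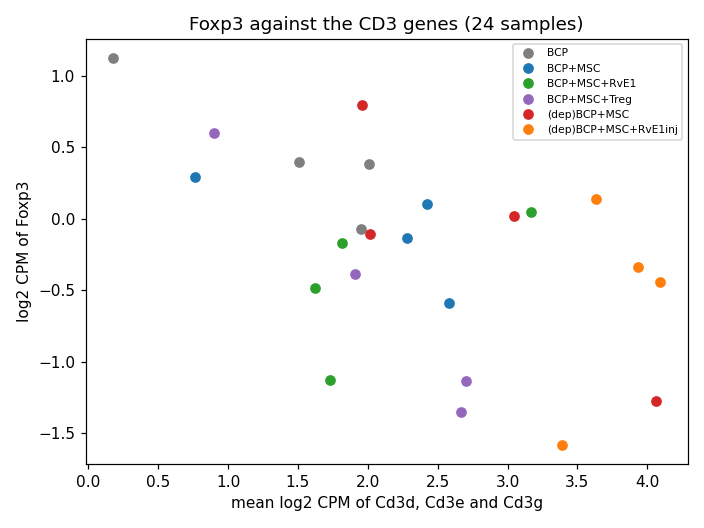
Log2 CPM of Foxp3 (y axis) against the mean log2 CPM of Cd3d, Cd3e and Cd3g (x axis) in 24 samples, colored by group. The (dep)BCP+MSC+RvE1inj samples sit furthest to the right, between 3.39 and 4.09 on the x axis together with the (dep)BCP+MSC column numbered 5 at 4.06, while Foxp3 lies within -1.58 and 1.12 over all samples.

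Across the 24 samples Foxp3 was lower where the CD3 genes were higher. Pearson's r was -0.55 (100000 permutations, p = 0.00594) and Spearman's rho -0.48 (p = 0.0169 by permutation). Without the 2 samples furthest from the median CD3 level r was -0.46, and after subtracting each group's mean from its samples r was -0.54 (permutation p = 0.00561). This last permutation ran over all 24 samples and not within groups. It makes no allowance for the means removed, so its p may be too small. This was the only relation of a member across samples that was tested. Both axes are shares of the same libraries, and their part in the relation was not tested. The rank correlation of Foxp3 with total counts was -0.28.

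The other members are given against the CD3 genes as a description over the same 24 samples, which share libraries and depth. Spearman's rho with the CD3 genes was 0.89 for Tnfrsf4, 0.82 for Il10, 0.78 for Icos, 0.77 for Ctla4, 0.75 for Tnfrsf18, 0.72 for Tigit, 0.64 for Il2ra and 0.62 for Ccr8, and -0.22 for Ikzf2. Among the members themselves the closest pairs were Tnfrsf4 with Il10 (rho 0.9), Icos with Tigit (0.85) and Il2ra with Tnfrsf18 (0.82). Foxp3 had its highest rho among members with Ikzf2 (0.36) and its lowest with Tnfrsf4 (-0.62). The transcription factors Foxp3 and Ikzf2 were thus the members with a negative rho to the CD3 genes.

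**Figure D4:**
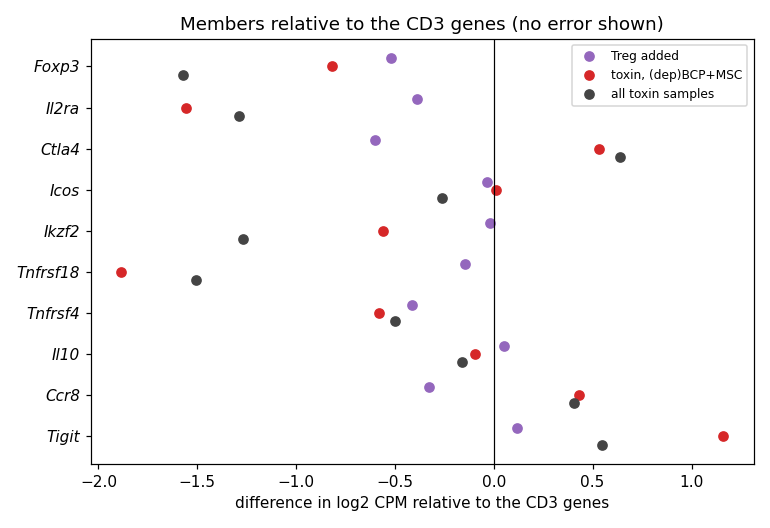
Difference in level relative to the CD3 genes (x axis, log2 units) for each of the 10 genes, for Treg added, toxin alone and all toxin-treated samples. Over all toxin-treated samples Foxp3 (-1.57), Tnfrsf18 (-1.5), Il2ra (-1.29) and Ikzf2 (-1.27) lie furthest to the left, and Ctla4 (0.64), Tigit (0.55) and Ccr8 (0.41) to the right of 0. Spreads are not shown.

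Taken per CD3 in the same way, and as a description only, the members lay on both sides of 0 in toxin-treated against untreated samples. Ctla4 (0.64), Tigit (0.55) and Ccr8 (0.41) were above 0 and Il10 (-0.16) and Icos (-0.26) close to it. Tnfrsf4 (-0.5), Ikzf2 (-1.27), Il2ra (-1.29), Tnfrsf18 (-1.5) and Foxp3 (-1.57) were below 0. SDs in toxin-treated and untreated samples were 0.51 and 0.84 for Ctla4, 0.62 and 1.04 for Tigit, and 0.7 and 1 for Ccr8. For Foxp3 they were 1.45 and 1.32. In (dep)BCP+MSC+RvE1inj against BCP+MSC, Ctla4 was at -0.04, Ccr8 at -0.11 and Tigit at 0.58. Apart from Foxp3, these values are not given without each pair of (dep)BCP+MSC libraries.

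The 5 genes whose levels followed Foxp3 most closely over the 24 samples, out of 16324 with a mean of at least 0.5 CPM, held no T cell gene. They were Gm43808 (Spearman's rho 0.91), Eif2ak4 (0.88), Wiz (0.87), Cherp (0.87) and Spen (0.87). Eif2ak4 encodes a stress kinase, and Wiz, Cherp and Spen encode nuclear proteins. The closest gene of any list was the macrophage gene Adgre1, at rank 2515 (rho 0.51), and the closest of the Treg-associated genes was Lrrc32, at rank 3623 (rho 0.42). Of the genes that overlap Foxp3, Gm36995 had a rho of 0.64 with it, Flicr 0.11 and Ccdc22 -0.01. These 3 were looked at after the values of Foxp3 were seen.

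Of 16 ligands and partners of the members, 1 rose and 1 fell in toxin-treated against untreated samples, near the 5.59% and 3.39% of all genes. Ccl1, a ligand of Ccr8, averaged 3.48 ± 2.17 CPM there and 0.647 ± 0.553 CPM without toxin, which gave a log2 fold change of 2.42 (edgeR, adjusted p = 0.000462). Cd80, a ligand of Ctla4 and Cd28 on antigen-presenting cells, averaged 8.06 ± 3.05 CPM with and 19.3 ± 6.2 CPM without toxin, and its log2 fold change was -1.25 (edgeR, adjusted p = 0.000607). After toxin alone the smallest p-values were those of Cd80 (-1.14, adjusted p = 0.072) and Il10ra, a chain of the interleukin 10 receptor (-0.52, adjusted p = 0.12). Without the columns numbered 4 and 5, Cd80 was at -1.88 (adjusted p = 0.00705) and Il10ra at -0.81 (adjusted p = 0.0193), and without replicates 1 and 2 at -0.64 and -0.25 (adjusted p = 0.657 and 0.777 in edgeR). Il2, whose product Il2ra binds, had a mean of 0.0402 CPM in toxin-treated and 0.12 CPM in untreated samples, close to the limit of the depth.

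Of 20 other genes linked to Treg, 2 rose (Gata3, 1.8, and Izumo1r, 1.01) and 2 fell in toxin-treated samples, against 5.59% and 3.39% of all genes, and their median log2 fold change was 0.16. Lrrc32 fell from 97.6 ± 26.2 CPM to 32 ± 10.3 CPM, a log2 fold change of -1.58 (edgeR, adjusted p = 1.98e-06). Ebi3, a cytokine subunit of the IL-12 family, fell from 11.9 ± 2.19 CPM to 5.54 ± 2.38 CPM (-1.1, adjusted p = 0.0013). Lrrc32 is also expressed by endothelial and stromal cells and Ebi3 by dendritic cells. Of all genes, 1.8% were called lower after toxin alone. Of the 20, 4 fell there, led by Lrrc32 (-1.7, adjusted p = 0.00103) and Nrp1 (-1.03, adjusted p = 0.0145). This became 5 of 20 without the columns numbered 4 and 5 and 0 of 20 without replicates 1 and 2, where Lrrc32 was at -1.58 (adjusted p = 0.0632) and Nrp1 at -0.63 (adjusted p = 0.416). Over all genes, calls were likewise far more numerous in the first of these fits than in the second. The RvE1 injection had its smallest p-values in Klrg1 (1.73) and Batf (0.84), both with adjusted p = 0.668. Without the columns numbered 4 and 5 Klrg1 was called (3.31, adjusted p = 0.00248 in edgeR).

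Of the 10 effector T cell genes tested among 12, 4 rose in toxin-treated samples and 0 fell, with a median log2 fold change of 1.24. Over all genes, 5.59% were called higher and 3.39% lower. Without the columns numbered 4 and 5, 2 rose, 1 fell and the median was -0.28, and without replicates 1 and 2, 5 rose and the median was 1.67. Il17f was listed at 0 in all BCP+MSC samples and reached 0.289 CPM after toxin alone, so that no fold is given. With RvE1 injected, Tbx21 (1.35), the factor of Th1 cells, had the smallest p-value, with adjusted p = 0.668 in edgeR. It was called without the columns numbered 4 and 5 (3.18, adjusted p = 0.00554).

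Among T cell genes, Cd4 (0.92, adjusted p = 0.085) and Trac (1.08, adjusted p = 0.176) had the smallest p-values after toxin alone, and Trbc2 (1.36) and Trbc1 (1.27) with RvE1 injected, both with adjusted p = 0.668 in edgeR. Cd4 was at 0.41 and Trac at 0.13 without the columns numbered 4 and 5, and at 1.32 and 1.67 without replicates 1 and 2, none of them called. With RvE1 injected, 7 of 14 T cell genes were called higher without the columns numbered 4 and 5 and 0 without replicates 1 and 2. The pairs differ in these same genes, so both counts are a description only. Markers of other cells were counted beside them in toxin-treated against untreated samples, where 5.59% of all genes were called higher and 3.39% lower. Single calls in lists this short are not read as results about a cell type. Of 6 dendritic cell genes 3 fell, namely Flt3, Itgax and Ccr7, and 0 rose. Zbtb46 (-0.67), Clec9a (-0.21) and Xcr1 (-0.06) were not called. The sum of the 6 was 161.7 to 678.1 CPM in (dep)BCP+MSC and 180.8 to 576.3 CPM in (dep)BCP+MSC+RvE1inj, against 663.2 to 1398 CPM elsewhere. Most of this sum was Itgax, with a mean of 348.3 CPM in toxin-treated and 900.3 CPM in untreated samples. Of 9 macrophage genes 1 rose and 1 fell, of 6 mast cell genes 2 rose, of 5 B cell genes 0 passed either threshold in edgeR or DESeq2 in this comparison, and of 7 genes of natural killer and innate lymphoid cells 1 rose and 1 fell. Of 8 skin genes 2 rose and of 8 muscle genes 1 rose. With RvE1 injected, 0 of the 5 B cell genes were called, but 4 passed the unadjusted threshold in edgeR and 5 in DESeq2, against 5.13% of all genes in edgeR in either direction, and 5 of 5 log2 fold changes were above 0. Among them were Ms4a1 (2.7) and Cd79b (1.67), both with adjusted p = 0.668. The sum over the B cell genes was 7.59 to 58.8 CPM in (dep)BCP+MSC+RvE1inj, 4.23 to 17.3 CPM in (dep)BCP+MSC and 5.83 to 33.3 CPM elsewhere. The part of these cells in the results of the 10 genes was not tested.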

How the data were processed

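RNA of 24 whole constructs, 1 per mouse, was analysed in 6 groups of 4, which were taken from the sample labels. Per the study's methods, the authors sequenced stranded mRNA libraries (paired ends), mapped reads with HISAT2 2.0.5 and counted those on exons of GENCODE M13 (GRCm38) with featureCounts 1.5.2. The deposited values are these raw counts, not normalized. The counting command had no option for strand, so reads were counted without strand and reads in overlapping genes were left out, which can lower Foxp3 and Tnfrsf18. That command names 28 libraries, of which 4 were not used here.

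A minimum of 10 counts summed over samples left 30564 genes, which were fitted in 1 quasi-likelihood model of all groups in edgeR 4.0.16 (R 4.3.3) with TMM normalization and robust dispersions, with Benjamini-Hochberg adjustment over these genes. Calls, higher or lower, were set at an adjusted p below 0.05 and an absolute log2 fold change above 1, as in the study's methods. A second threshold used the unadjusted p. Intervals are estimates ± 1.96 SE. Log2 CPM used a prior count of 2, and ratios were tested by two-sided exact permutation tests. These intervals include the spread between animals, while floors of 3 counts cover counting error only. Fits were tested on simulated data.

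Members and gene lists were chosen with earlier results of these data known. Named in the text are the 10 members, in the comparisons of Treg, toxin and RvE1 injection the 2 genes of each of 4 lists with the smallest p, the 5 genes most like Foxp3 and neighbours in the genome. One gene that this rule names is not reported here. Other genes were chosen after their values were seen. Gene symbols came from GENCODE M21 and matched 50376 identifiers. Alternatives were RLE or library-total normalization, 2 other filters, only the groups compared, DESeq2 1.42.0, a replicate block, each animal left out, other references for the ratio, and 3 subsets of libraries. Tables were handled in Python 3.11.15.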

Additional observations from a re-analysis of the deposited data

Results flagged for a closer look

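In 66 sets of 4 samples, made of the 10 genes and the ratio of Foxp3 to the CD3 genes in 6 groups, 2 had a sample far from the other 3 of its group by Dixon's test. Chance gives about 1 in 20 such sets. Ctla4 in (dep)BCP+MSC+RvE1inj replicate 4 was at 16.9 CPM, with the other 3 samples between 13.5 and 14 CPM, and its gap was 0.847 of the range on the log2 scale. Ikzf2 in BCP replicate 1 was at 7.46 CPM, with the others between 4.9 and 5.1 CPM, and its gap was 0.904 of the range. Neither gene changed its side of the threshold when that sample was left out.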

How the results depend on the processing

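Over all toxin-treated samples Ctla4, Tigit and Ccr8 were called in all 24 fits without 1 animal and all 9 other settings, while calls within pairs of groups sat near the threshold. After toxin alone, 1 of 10 genes was called, and this became 0 with no filter beyond 1 count or with only the groups compared, 3 with DESeq2 and 0 to 1 with single animals left out. At the unadjusted threshold 4 genes became 2 to 4 with single animals left out. For (dep)BCP+MSC+RvE1inj against BCP+MSC, the 1 call became 0 with no filter beyond 1 count or with only the groups compared, 4 with DESeq2 and 0 to 0 with single animals left out. For (dep)BCP+MSC+RvE1inj against (dep)BCP+MSC, the 0 genes at the unadjusted threshold became 0 to 4 with single animals left out, the highest without the column numbered 5. Without 1 animal the same count ran from 0 to 1 for BCP+MSC+Treg against BCP+MSC, for BCP+MSC+RvE1 against BCP+MSC and for BCP+MSC+Treg against BCP, where DESeq2 also gave 1. The 5 calls over all toxin-treated samples were 4 to 5 with single animals left out. RLE normalization, library totals alone and the filterByExpr filter moved no count of the 10 genes by more than 1.5 times. Library totals alone shifted the median of all genes by -0.11 for BCP+MSC+RvE1 against BCP+MSC. The causes were not tested. Over all genes, the 409 called higher and 550 lower after toxin alone became 911 and 931 with DESeq2, 81 and 76 with only the groups compared, 835 and 1314 with the block, 1129 and 1556 without the columns numbered 4 and 5, 21 and 22 without replicates 1 and 2 and 226 and 309 in the deeper libraries. The 1707 and 1037 over all toxin-treated samples became 782 and 557 without replicates 1 and 2 and 573 and 482 in the deeper libraries. The 0 and 0 with RvE1 injected became 5 and 3 with DESeq2, 229 and 100 with the block and 428 and 187 without the columns numbered 4 and 5.

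Same-numbered samples did not deviate together (r from -0.62 to 0.62 over 50 pairs, and 5 of 22 samples matched their own number best), so the numbers are not read as pairs. With the replicate block, which leaves out the columns numbered 4 and 5, Tigit was not called after toxin alone (1.85, edgeR adjusted p = 0.121), and the calls were Il2ra (-1.89) and Tnfrsf18 (-2.45), both lower. Calls under the block numbered 2 after toxin alone, 2 with RvE1 injected (5 at the unadjusted threshold), 3 over all toxin-treated samples at both thresholds, and 0 for (dep)BCP+MSC+RvE1inj against BCP+MSC, and BCP+MSC+Treg against BCP had 1 gene at the unadjusted threshold. The block turned the log2 fold change after toxin alone to -0.0653 for Icos, -0.46 for Tnfrsf4 and -0.0356 for Il10, and over all toxin-treated samples to 0.19 for Foxp3, -0.44 for Il2ra and -0.73 for Tnfrsf18.

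Subsets of libraries were chosen after seeing the data. Leaving out the columns numbered 4 and 5 without the block gave 2, 2 (5 unadjusted), 3 (3 unadjusted) and 2 calls in the same order. It turned Icos to -0.0252, Tnfrsf4 to -0.43 and Il10 to -0.29 after toxin alone, and Foxp3 to 0.0816, Il2ra to -0.46 and Tnfrsf18 to -0.63 over all toxin-treated samples. Leaving out replicates 1 and 2 gave 0 calls after toxin alone and 2 for (dep)BCP+MSC+RvE1inj against BCP+MSC. After toxin alone it turned Foxp3 to -0.44, Il2ra to 0.31, Ikzf2 to -0.0716 and Tnfrsf18 to 0.52. With RvE1 injected it turned Foxp3 to 0.0912, Ctla4 to -0.0117, Icos to -0.16, Ikzf2 to 0.0437 and Ccr8 to -0.24, and over all toxin-treated samples Ikzf2 to -0.0071. With only libraries of at least 20000000 counts, calls were 2 after toxin alone and 0 for (dep)BCP+MSC+RvE1inj against BCP+MSC, and BCP+MSC+Treg against BCP had 1 gene at the unadjusted threshold. That subset turned Tnfrsf4 to 0.23 with Treg added, Foxp3 to -0.3, Ikzf2 to -0.0663 and Tnfrsf18 to 0.11 after toxin alone, and Ikzf2 to -0.0413 over all toxin-treated samples.

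Leaving out single animals turned the direction of uncalled genes. With Treg added the log2 fold changes ran from -0.17 to 0.22 for Icos, -0.28 to 0.11 for Ikzf2, -0.499 to 0.25 for Tnfrsf18, -0.68 to 0.23 for Tnfrsf4, -0.36 to 0.79 for Il10, -0.57 to 0.0162 for Ccr8 and -0.0947 to 0.49 for Tigit. After toxin alone they ran from -0.32 to 0.31 for Foxp3, -0.0899 to 0.33 for Ikzf2, -1.17 to 0.0856 for Tnfrsf18 and -0.12 to 0.52 for Tnfrsf4. With RvE1 injected, Ikzf2 ran from -0.36 to 0.0213. Over all toxin-treated samples Ikzf2 ran from -0.037 to 0.165 and Tnfrsf18 from -0.13 to 0.49.

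The ratio of Foxp3 to the CD3 genes kept its direction and side of the threshold in the 5 comparisons with Cd4 or all T cell genes as the reference and with a prior count of 0.5. With single animals left out, its difference ran from -1.29 to 0.0239 with Treg added, turning without BCP+MSC replicate 2, from -1.4 to -0.0138 after toxin alone, the latter without the column numbered 5, and from -2.21 to -0.82 with RvE1 injected, where the exact permutation p was 0.0286 without the column numbered 5. It ran from -2.58 to -1.68 for (dep)BCP+MSC+RvE1inj against BCP+MSC, where the exact permutation p became 0.0571 in 5 of 8 cases, and from -1.92 to -1.33 over all toxin-treated samples. After toxin alone it turned to 0.45 without the columns numbered 4 and 5. Foxp3 and Ccr8 were limited by depth, with as few as 4 and 1 counts in a library.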
